A study of Mus musculus with 24 samples.

Results

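Hoxa2, Hoxa3, Hoxb3, Hoxb4 and Hoxc5 belong to paralogue groups 2 to 5, at the anterior end of the Hox clusters, and were followed by RNA sequencing through retinoid treatment of mouse P19 cells and of P19 lines that lack a retinoic acid receptor (RAR). They were taken by exact gene symbol and are 5 of the 1753 genes listed in any of the 23 comparison tables. All 5 genes reached a log2 fold change over 2 after 4 days of all-trans retinoic acid (ATRA) or of the RARα agonist BMS753. For each ligand 4 of them, all but Hoxc5, were still above 2 at day 10, after the ligand had been withdrawn at day 4. The genes were selected on these log2 values, which were known when the set was chosen, so the values are a description and carry no test.

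P19 is a mouse embryonal carcinoma line, grown here as a monolayer, and each of the 24 conditions was measured in 1 library. Wild-type (WT) cells received ethanol (EtOH, the vehicle), 1 µM ATRA, 1 µM BMS753, or 0.1 µM of the RARβ agonist BMS641 together with 0.1 µM of the RARγ agonist BMS961. They were collected after 2 or 4 days, or after 4 days of ligand and 6 days in Neurobasal medium (day 10), and WT cells with BMS961 alone were collected at day 10. Lines deficient for Rara, Rarb or Rarg, written Rara(-/-), Rarb(-/-) and Rarg(-/-), were made by CRISPR/Cas9 cutting with insertion of a puromycin resistance cassette and were measured at day 10 only. Rara(-/-) cells received ATRA, BMS961 or the combination. Rarb(-/-) cells received ATRA, BMS753, BMS961 or the combination, and Rarg(-/-) cells received ATRA, BMS753, BMS641 or the combination. Whether a null line is a single clone is not given in the sources used here. Every library, null lines included, was set against the same WT EtOH library of day 2, and no vehicle library of a null line was analysed here. Ligands can be set side by side within a null line, but a change that the line brings without ligand cannot be told apart from one that all its ligands share.

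A table lists a gene only where the authors' unadjusted p-value was below 0.01. A gene that is not listed has no value here and is not shown to be unchanged. The standard error (SE) behind each log2 value was read back from the value and its p-value, and it covers what the authors' model assumes rather than the spread between cultures. Intervals of differences between tables add both SEs, and each SE holds the error of the shared reference library, which cancels in the difference, so these intervals are too wide by an amount that the tables do not give. Sequencing depth is unknown, and the tables hold no counts. Whether a gene had any reads in the reference library therefore could not be read, and a fitted fold change against a library without reads is set by the model. The RNA came from whole cultures, in which fewer cells of a type and less RNA per cell cannot be told apart. Rara, Rarb and Rarg were listed in none of the 23 tables, so the files do not check the labels of the null lines.

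Hox genes encode homeodomain transcription factors that give cells of the embryo their position along the head-to-tail axis, and their order along a cluster follows the order of their expression domains. The anterior paralogues mark the hindbrain and the neck region. Retinoic acid is a classical inducer of Hox clusters in embryonal carcinoma cells, in a sequence that begins at the anterior end. RARs bind DNA as partners of retinoid X receptors, commonly at direct repeats of a hexamer with a spacer of 5 bases, called DR5 elements.

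The introns of Hoxa3 and Hoxb3 hold the same DR5 element, and its sequence is shown because it is found in both of these introns. In the mm9 genome (NCBIM37), the Hoxa3 element lies at chr6:52125532-52125548 on the minus strand and the Hoxb3 element at chr11:96202550-96202566 on the plus strand, each on the strand of its gene and outside every annotated exon. The same hexamer pattern occurs near Hoxb1 at chr11:96234090-96234106 (plus strand). The 3 windows below run 5′ to 3′ on the strand of the cluster, with 30 bases on either side of the element and the hexamers of the repeat in capitals.
Hoxa3 intron: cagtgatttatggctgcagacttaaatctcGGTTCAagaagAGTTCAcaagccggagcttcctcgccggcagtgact
Hoxb3 intron: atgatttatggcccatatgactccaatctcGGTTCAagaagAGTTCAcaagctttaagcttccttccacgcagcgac
Hoxb1 side: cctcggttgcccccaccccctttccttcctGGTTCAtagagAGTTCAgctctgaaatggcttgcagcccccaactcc

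All 17 bases of the element were identical between the Hoxa3 and Hoxb3 introns, spacer included, and this run of 17 bases had 2 copies in the chromosomes searched, which are these. Over the whole windows of 77 bases the introns shared 41 bases (53.2%), of which 24 lay in the 60 flanking bases. Of these 17 bases the Hoxb1 element matched 14, and it lies 4520 bases from the Hoxb1 gene body.

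A search on both strands with 4 hexamers, namely AGGTCA and AGTTCA and also GGGTCA and GGTTCA, found 8929 DR5 repeats in the genome, or 3.49 per Mb. A window of 50 kb centred on the gene body held at least 1 of them for 4 of the 5 genes, against 17.6% of 22233 protein-coding genes. The 4 windows are not independent, since Hoxa2 and Hoxa3 share the intronic element of Hoxa3, and Hoxb3 and Hoxb4 share that of Hoxb3. The window of Hoxc5 held no match. Repeats with a spacer of 1 base (DR1) were in the windows of 2 of the 5 genes, against 31.3% of coding genes, and those with a spacer of 2 bases (DR2) were in 2 of the 5, against 45.8%. A match is a run of letters and not a measured binding site.

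**Figure D1:**
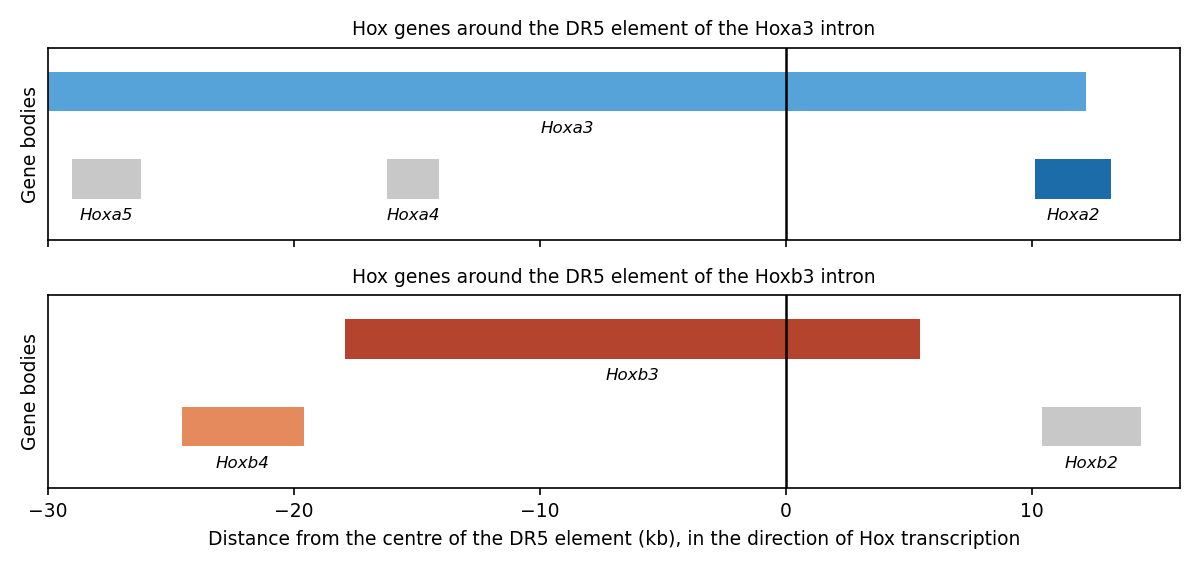
Gene bodies of the Hoxa (top) and Hoxb (bottom) clusters drawn to scale as distance in kb from the DR5 element in the Hoxa3 or Hoxb3 intron (vertical line), with transcription running to the right and genes that are not among the 5 in grey. The element lies 12.2 kb before the end of the Hoxa3 gene body, which runs past the left edge of the plot, and 5.44 kb before the end of Hoxb3.

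Hoxa2 lies at chr6:52112350-52115412 and Hoxa3 at chr6:52113358-52163338, both on the minus strand. Hoxb4, at chr11:96177998-96182952, precedes Hoxb3, at chr11:96184640-96207999, on the plus strand, and Hoxc5 lies at chr15:102844246-102847860 on the plus strand. Some exonic bases belong to more than 1 gene. Hoxa2 and Hoxa3 share 267 exonic bases on the same strand, which is 11.02% of the Hoxa2 exons and 3.91% of those of Hoxa3. The exons of Hoxb3 overlap those of the antisense transcript Hoxb3os over 1140 bases (37.9%), and the exons of Hoxa3 overlap the antisense transcript Hoxaas2 over 1055 bases (15.4%). Hoxc5 shares 449 exonic bases (15.4%) with the non-coding transcript Gm20398 on its own strand. Because the sources do not say whether counting used the strand, reads from a gene and its antisense partner cannot be told apart.

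Of the 115 possible values, 5 genes in 23 tables, 48 were listed and 67 were not. All 48 listed values were above 2 and none was negative. They ran from 4.66 to 9.81, with a median of 7.61, while the median over all upward values of all genes was 6.57. Over all genes and tables, 11.9% of values were above 2. The implied SE ran from 1.81 to 2.84, so a listed value had a wide 95% interval, and the lowest lower bound was 1.13. A higher threshold of 5 kept 47 of the 48 values, beside 8.99% of all values. A limit of 0.005 on the authors' p-value in place of 0.01 kept 43, beside 7.83% of all values, and a limit of 0.001 kept 25, beside 2.77%.

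At least 4 of the genes were listed in 10 tables, and the others listed 2, 1 or none. The tables with at least 4 were WT with ATRA or BMS753 at days 4 and 10, each null line with ATRA, Rarb(-/-) and Rarg(-/-) with BMS753, and Rara(-/-) with BMS641+BMS961. No gene of the set was listed in 10 tables, among them both later EtOH tables of WT, the WT combination at days 2 and 10, and BMS961 alone in WT.

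**Figure D2:**
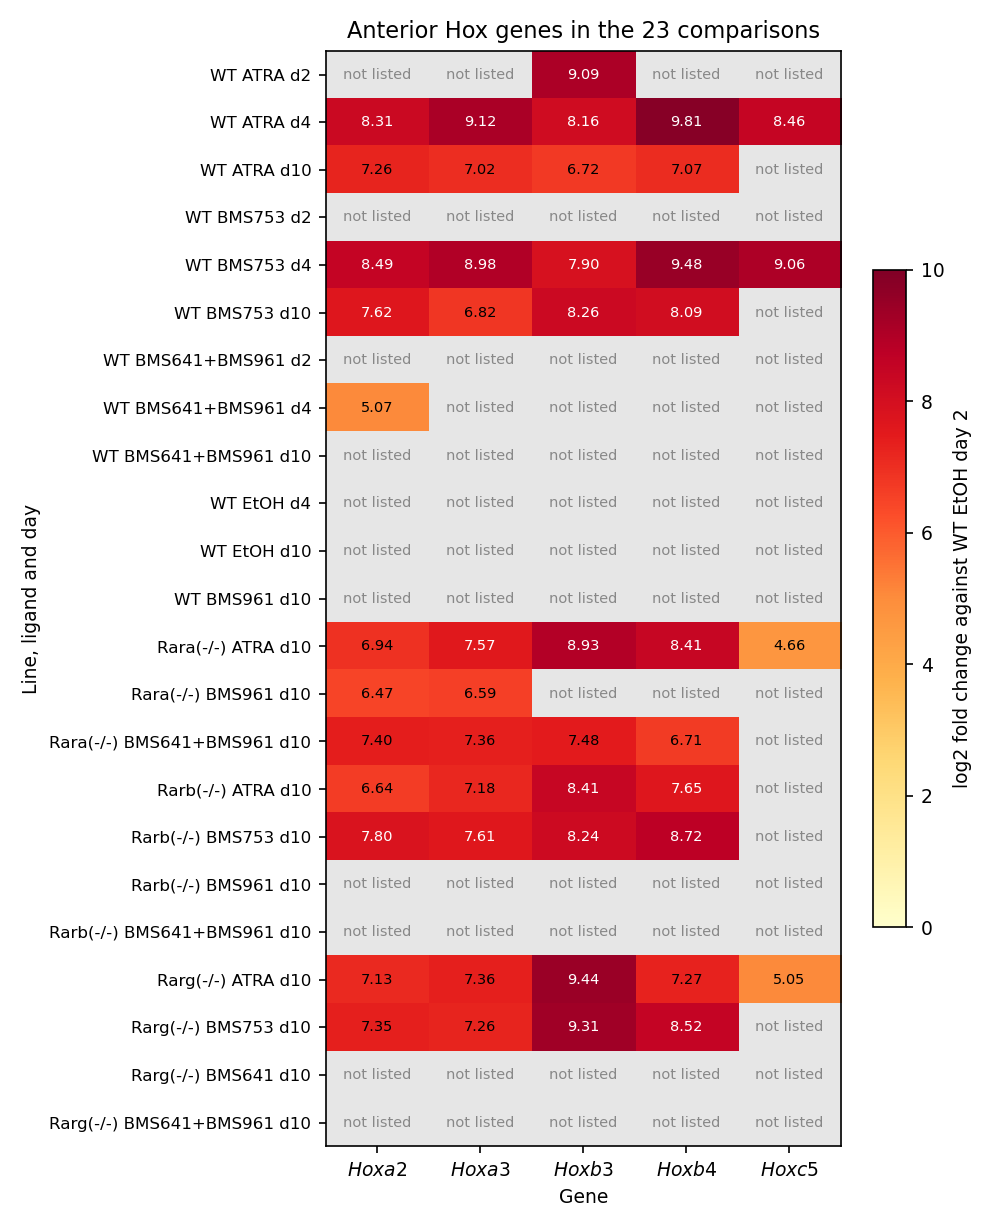
Log2 fold change of each gene (columns) in each of the 23 comparisons with the WT EtOH day 2 library (rows), with the value printed in each cell and grey cells for genes that the table does not list. The ATRA and BMS753 rows from day 4 on and the Rara(-/-) row with BMS641+BMS961 hold at least 4 values each, Hoxc5 is listed in 4 of these 10 rows, and 3 other rows hold 1 or 2 values.

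Hoxa2 is the most anterior of the 5 genes and sets the identity of hindbrain segments and of the second pharyngeal arch. It was listed in 12 tables, the most of the set. In WT cells its log2 value was 8.31 with ATRA at day 4, 7.26 with ATRA at day 10, 8.49 with BMS753 at day 4 and 7.62 with BMS753 at day 10. It was also the single gene of the set listed for WT cells with BMS641+BMS961, at day 4, with a value of 5.07 (95% interval 1.38 to 8.76), its lowest of all. In the null lines it stood at 6.94 with ATRA, 6.47 with BMS961 and 7.40 with the combination in Rara(-/-), at 6.64 with ATRA and 7.80 with BMS753 in Rarb(-/-), and at 7.13 with ATRA and 7.35 with BMS753 in Rarg(-/-). Over its 9 day 10 values the SD was 0.435, against SEs with a median of 2.26 for the gene, so the day 10 values lay much closer together than their own errors. They share a reference library, which ties them to each other.

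Hoxa3, a regulator of pharyngeal organs such as the thymus and parathyroid, was listed in 11 tables, all of them tables that also list Hoxa2. Its value in WT cells was 9.12 with ATRA at day 4, 7.02 with ATRA at day 10, 8.98 with BMS753 at day 4 and 6.82 with BMS753 at day 10. In the null lines it was 7.57 with ATRA, 6.59 with BMS961 and 7.36 with the combination in Rara(-/-), 7.18 with ATRA and 7.61 with BMS753 in Rarb(-/-), and 7.36 with ATRA and 7.26 with BMS753 in Rarg(-/-). The day 4 values of WT were above all 9 of its day 10 values, which had an SD of 0.337. The sources used here do not say whether reads on exonic bases shared by Hoxa2 and Hoxa3 were counted for both or left out. The part of these reads in the values of either gene was not tested.

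Hoxb3, which acts in the posterior hindbrain together with Hoxa3, was listed in 11 tables and was the only gene of the set listed at day 2. Its value with ATRA in WT was 9.09 at day 2 (95% interval 3.54 to 14.6), 8.16 at day 4 and 6.72 at day 10, and with BMS753 it was 7.90 at day 4 and 8.26 at day 10. The day 2 value ranked 5 among the 99 genes above 2 in that table. In the null lines Hoxb3 stood at 8.93 with ATRA and 7.48 with the combination in Rara(-/-), at 8.41 with ATRA and 8.24 with BMS753 in Rarb(-/-), and at 9.44 with ATRA and 9.31 with BMS753 in Rarg(-/-). The 2 highest of its 11 values were thus both in Rarg(-/-), while its lowest was WT with ATRA at day 10. Its day 10 values were the most spread of the set, with an SD of 0.916 over 8 tables, and its SEs were the widest, from 2.47 to 2.84.

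Hoxb4, a patterning gene of the neck vertebrae that is also known from blood stem cells, was listed in 10 tables. These are the 10 tables that list at least 4 genes of the set. In WT it had the highest value of the whole set, 9.81 with ATRA at day 4, where it ranked 7 among 179 genes above 2, and it was at 9.48 with BMS753 at day 4, where it ranked 7 among 146. By day 10 the WT values were 7.07 with ATRA and 8.09 with BMS753. The null lines gave 8.41 with ATRA and 6.71 with the combination in Rara(-/-), 7.65 with ATRA and 8.72 with BMS753 in Rarb(-/-), and 7.27 with ATRA and 8.52 with BMS753 in Rarg(-/-). The value with BMS753 was thus above that with ATRA at day 10 in WT, Rarb(-/-) and Rarg(-/-), and the intervals of the 3 differences all held 0.

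Hoxc5, the most posterior of the 5 and the only one of the Hoxc cluster, was listed in 4 tables. It was at 8.46 with ATRA and 9.06 with BMS753 in WT at day 4, and was listed for WT at no other day. At day 10 it was listed with ATRA in Rara(-/-), at 4.66, and in Rarg(-/-), at 5.05, where it ranked 304 of 333 and 341 of 375 genes above 2. Both day 10 values were close to the limit of listing, with p-values of 0.00979 and 0.00881 from the authors' DESeq2 model.

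The limit on the p-value was the threshold that decided listing, and the values nearest to it were those of Hoxb3 in WT with ATRA at day 10, with a DESeq2 p-value of 0.00981, and of Hoxc5 in Rara(-/-). Values just outside it are not in the tables. The value a gene needed to be listed depends on its SE in that table, which is known only where the gene is listed.

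At day 2 the tables listed a single value of the set. With ATRA, 1 of the 5 genes was above 2, against 5.65% of all genes. With BMS753 none was, against 6.39%, and with BMS641+BMS961 none was, against 3.71%. Other genes of the anterior Hoxa and Hoxb regions were listed at this time. Hoxb2 was at 5.19 with ATRA and 2.78 with BMS753, and Hoxaas2, the transcript antisense to Hoxa3, was at 9.42 with ATRA and 7.66 with BMS753. Hoxb3os, antisense to Hoxb3, was listed once, at 3.91 with BMS753 at day 2, in a table that does not list Hoxb3.

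At day 4 all 5 genes were above 2 with ATRA, against 10.2% of all genes, and all 5 with BMS753, against 8.33%. The median of the set was 8.46 with ATRA, where the median of all genes above 2 was 7.15, and 8.98 with BMS753, where it was 7.03. With BMS641+BMS961, at a dose 10 times lower for each compound, 1 of the 5 was above 2, against 2.22%, and in the EtOH table none was, against 1.65%. Every table was set against EtOH of day 2, and the EtOH library of day 4 listed no gene of the set in either direction.

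At day 10, 4 of the 5 genes were above 2 in WT with ATRA, against 22.5% of all genes, and 4 with BMS753, against 21.8%. None was above 2 with the combination (9.87% of all genes), with BMS961 alone (8.16%) or with EtOH (9.53%). The smallest change listed in either direction was 4.73 in the ATRA table and 4.46 in the BMS753 table, but 2.75, 2.87 and 2.77 in the combination, BMS961 and EtOH tables. These smallest changes are over all genes and come from genes with small SEs. They do not give the limit for the 5 Hox genes, whose SEs are unknown where they are not listed.

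Day 10 and day 4 could be set side by side for 4 genes under each of the 2 ligands. The difference, day 10 minus day 4, ran from -2.75 for Hoxb4 with ATRA to 0.36 for Hoxb3 with BMS753, with a median of -1.41 over the 8 pairs. Under ATRA it was -1.05 for Hoxa2, -2.11 for Hoxa3 and -1.44 for Hoxb3. The 95% interval of the Hoxb4 difference was -9.51 to 4.01, and all 8 intervals held 0. Between the 2 days the ligand was also withdrawn and the medium changed from serum to Neurobasal. Time, ligand withdrawal and medium cannot be told apart.

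**Figure D3:**
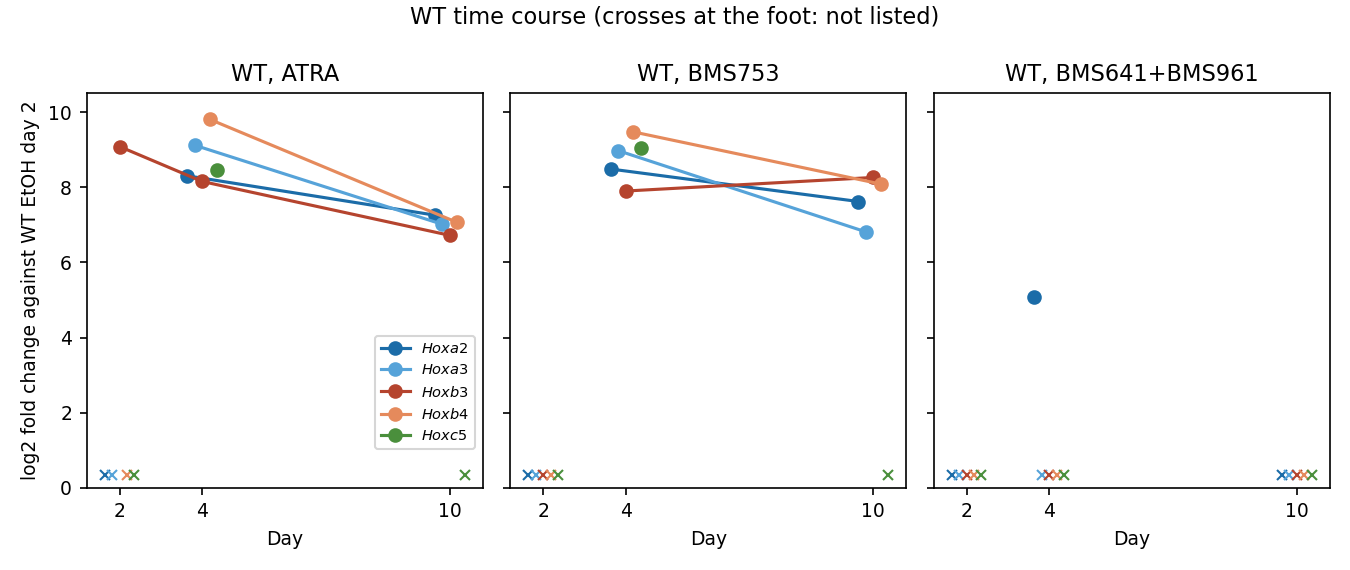
Log2 fold change against WT EtOH day 2 (vertical axis) by day of collection (horizontal axis) in WT cells with ATRA, BMS753 or BMS641+BMS961, with points shifted slightly sideways and crosses at the foot of the plot for genes that the table does not list. Values at day 4 lie between 7.90 and 9.81 with ATRA and BMS753, and with the combination the single listed value is Hoxa2 at 5.07.

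ATRA activates all RAR isotypes and BMS753 the RARα isotype, and both were used at 1 µM, so their values can be compared at a matched dose and day. Over the 17 pairs in which both tables list the gene, in WT at days 4 and 10 and in Rarb(-/-) and Rarg(-/-) at day 10, the difference of BMS753 minus ATRA ran from -0.34 to 1.54 with a median of 0.22. The largest was Hoxb3 in WT at day 10, 8.26 against 6.72, with a 95% interval of -5.65 to 8.73. At day 4 in WT the difference was 0.18 for Hoxa2, -0.14 for Hoxa3, -0.26 for Hoxb3, -0.34 for Hoxb4 and 0.60 for Hoxc5. All 17 intervals held 0, and neither a difference nor its absence is shown.

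In the null lines the genes were listed with ATRA whichever receptor was missing. With ATRA at day 10, all 5 genes were above 2 in Rara(-/-), against 19% of all genes, 4 in Rarb(-/-), against 20.5%, and 5 in Rarg(-/-), against 21.4%. With BMS753, 4 were above 2 in Rarb(-/-), against 22.3%, and 4 in Rarg(-/-), against 19.9%. Rara(-/-) cells with BMS753, the agonist of the missing receptor, were not analysed here.

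The null lines could be set against WT with the same ligand in 20 pairs, and the difference ran from -0.62 for Hoxa2 to 2.71 for Hoxb3, with a median of 0.44. The extremes were Hoxa2 in Rarb(-/-) with ATRA, 6.64 against 7.26 in WT, and Hoxb3 in Rarg(-/-) with ATRA, 9.44 against 6.72 in WT. The interval of the Hoxb3 difference was -4.57 to 10.0, and all 20 intervals held 0. The 12 pairs with ATRA all used the single WT library of that ligand and day, so an error in that library moves all of them.

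BMS641 and BMS961 gave a different picture in the 3 null lines, as far as the listing goes. In Rara(-/-) cells 2 of the 5 genes were above 2 with BMS961 alone, against 10.9% of all genes, and 4 with BMS641+BMS961, against 16.8%. In Rarb(-/-) cells none was above 2 with BMS961 (7.02% of all genes) or with the combination (8.27%). In Rarg(-/-) cells none was above 2 with BMS641 (8.5%) or with the combination (8.61%). The difference between lines was not tested, since each condition is 1 library.

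The Rara(-/-) libraries let the ligands be compared gene by gene. With BMS961 alone Hoxa2 was at 6.47 and Hoxa3 at 6.59, while Hoxb3, Hoxb4 and Hoxc5 were not listed, so both listed genes were of the Hoxa cluster. Adding BMS641 gave 7.40 for Hoxa2 and 7.36 for Hoxa3, a difference of 0.93 and 0.77, and brought Hoxb3 at 7.48 and Hoxb4 at 6.71 into the table. The interval was -4.66 to 6.53 for the Hoxa2 difference and -4.83 to 6.36 for that of Hoxa3. The smallest upward value listed for any gene with BMS961 alone in this line was 3.39, which is not the limit for the unlisted Hox genes. At the lowest SE each had where listed, the value needed was 6.36 for Hoxb3, 5.16 for Hoxb4 and 4.65 for Hoxc5. Their SEs with BMS961 alone are unknown.

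Set beside WT cells with ATRA, at a dose 10 times higher than that of either agonist in the combination, the Rara(-/-) combination gave 7.40 against 7.26 for Hoxa2, 7.36 against 7.02 for Hoxa3, 7.48 against 6.72 for Hoxb3 and 6.71 against 7.07 for Hoxb4. Beside Rara(-/-) cells with ATRA, the pairs were 7.40 against 6.94, 7.36 against 7.57, 7.48 against 8.93 and 6.71 against 8.41 in the same order. Hoxb3 and Hoxb4 thus had the lower value with the combination in that line, by 1.45 for Hoxb3 and 1.71 for Hoxb4 on the log2 scale, while the difference was 0.47 for Hoxa2 and -0.21 for Hoxa3. All 8 intervals held 0, and the widest of these differences, that of Hoxb4, had an interval of -7.63 to 4.22.

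**Figure D4:**
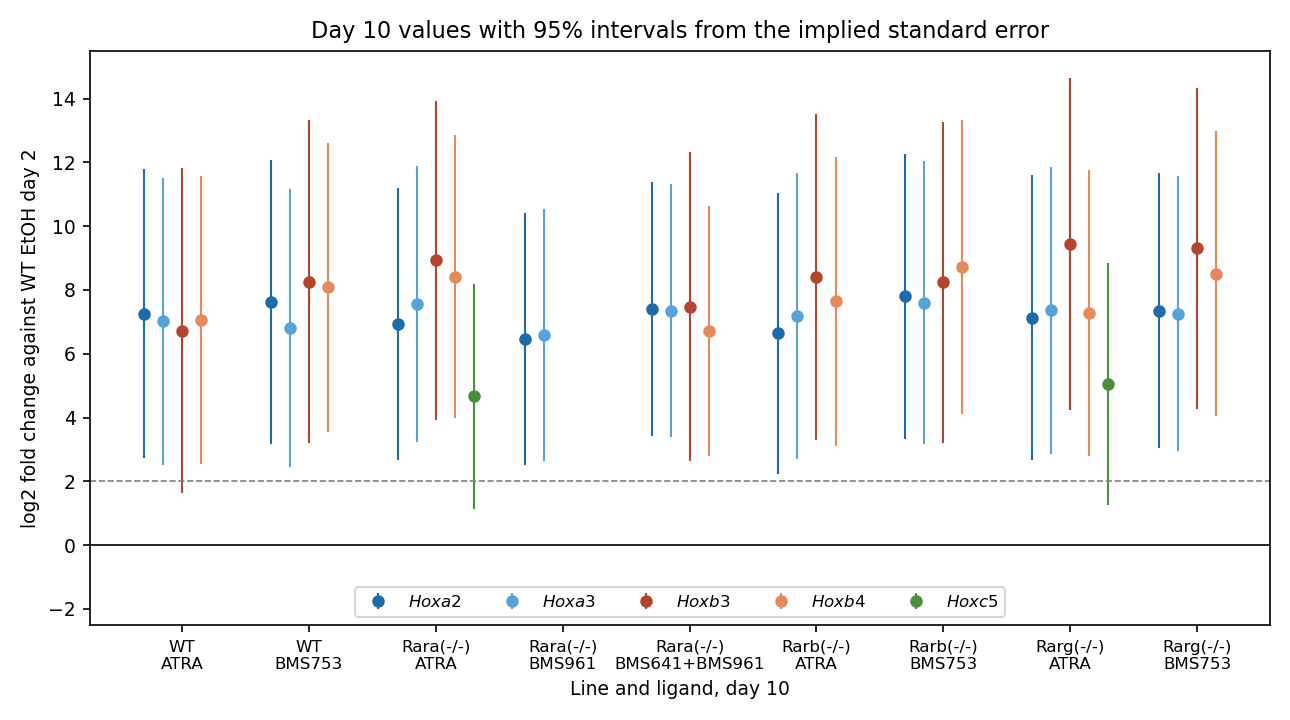
Day 10 log2 fold changes against WT EtOH day 2 (points) with 95% normal intervals from the implied SE (bars) for the 9 day 10 conditions that list at least 1 of the genes, with a dashed line at 2. The bars of any 1 gene overlap across all lines and ligands, and Hoxc5 in Rara(-/-) and Rarg(-/-), at 4.66 and 5.05, has the lowest points.

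Across all 57 differences computed between tables the 95% interval held 0, with half-widths from 5.60 to 7.86 on the log2 scale. The largest difference in size was that of Hoxa2 in WT at day 4, 5.07 with BMS641+BMS961 against 8.31 with ATRA, at unequal doses, with an interval of -9.29 to 2.82. Whether a gene differed between conditions that both list it was not settled by these intervals, which are too wide, and the pattern of the set is given by where the genes are listed.

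The 5 genes shared most of their tables. Hoxa3 shared 11 of the 12 tables of Hoxa2, Hoxb4 shared 10 of the 11 tables of Hoxa3 and 10 of the 11 of Hoxb3, and the 4 tables of Hoxc5 were among those of all the others. All tables share the WT EtOH library, so these overlaps are not independent evidence. Being above 2 in at least 12 tables, as Hoxa2 was, held for 65 genes (3.71% of 1753). At least 11 tables, as for Hoxa3 and Hoxb3, held for 87 genes (4.96%), at least 10, as for Hoxb4, for 121 genes (6.90%), and at least 4, as for Hoxc5, for 489 genes (27.9%).

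The genes with the most similar set of tables were found by the Jaccard index, the number of shared tables divided by the number in which either gene is above 2. For Hoxa3, Ngfr (a neurotrophin receptor and neural crest marker), Gas1 and Unc5c had exactly its 11 tables, with an index of 1. The nearest for Hoxa2 were Hoxa3, Ngfr and Gas1, at 0.917. For Hoxb3, Osr1 and Mex3b had the same 11 tables, the WT ATRA day 2 table included, followed by Hoxb4 at 0.909, and for Hoxb4, Hoxb8, Twist1 and Tbx2 had the same 10. Hoxc5 had no close match, and Foxa1 and A830082K12Rik, at 0.6, came nearest. Ties between genes of equal index were ordered by how close their log2 values were.

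Within paralogue groups 2 to 5 the listing was uneven. Of the 12 genes of these groups, 7 were above 2 in at least 1 table, namely the 5 genes of the set with Hoxb2 and Hoxc4, and Hoxd3, Hoxa4, Hoxd4, Hoxa5 and Hoxb5 were listed nowhere. Hoxb2, the neighbour of Hoxb3, was listed in 4 tables and at no day 10, at 5.19 and 5.30 with ATRA at days 2 and 4 and at 2.78 and 4.67 with BMS753. Hoxc4, next to Hoxc5, was listed in the same WT day 4 tables as Hoxc5, at 5.46 with ATRA and 5.41 with BMS753. Hoxa4 and Hoxa5, which lie within the annotated gene body of Hoxa3, have no value in any table.

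At the anterior end of the Hoxb cluster, Hoxb1, an early retinoid-responsive gene, was above 2 in 2 tables, WT at day 4 with BMS753 and with BMS641+BMS961. It was at 9.01 and 7.45 in these and was not listed with ATRA. The WT combination at day 4 listed no Hox gene of paralogue groups 3 to 13.

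Towards the posterior end, 11 of the 15 genes of groups 6 to 10 were above 2 somewhere. Hoxa7 was above 2 in 11 tables, at 6.89 to 9.94, and Hoxb8 and Hoxc6 in 10 each. Hoxa7 and Hoxc6 were, like Hoxb3, already listed with ATRA at day 2. Of the 9 genes of groups 11 to 13 only Hoxd11 was above 2, in 1 table, while Hoxb13 was below -2 in 5 tables and Hoxc13 in 8. Over all 4 clusters 21 of 39 Hox genes were above 2 in some table, 2 were below -2 and 16 were listed in none.

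**Figure D5:**
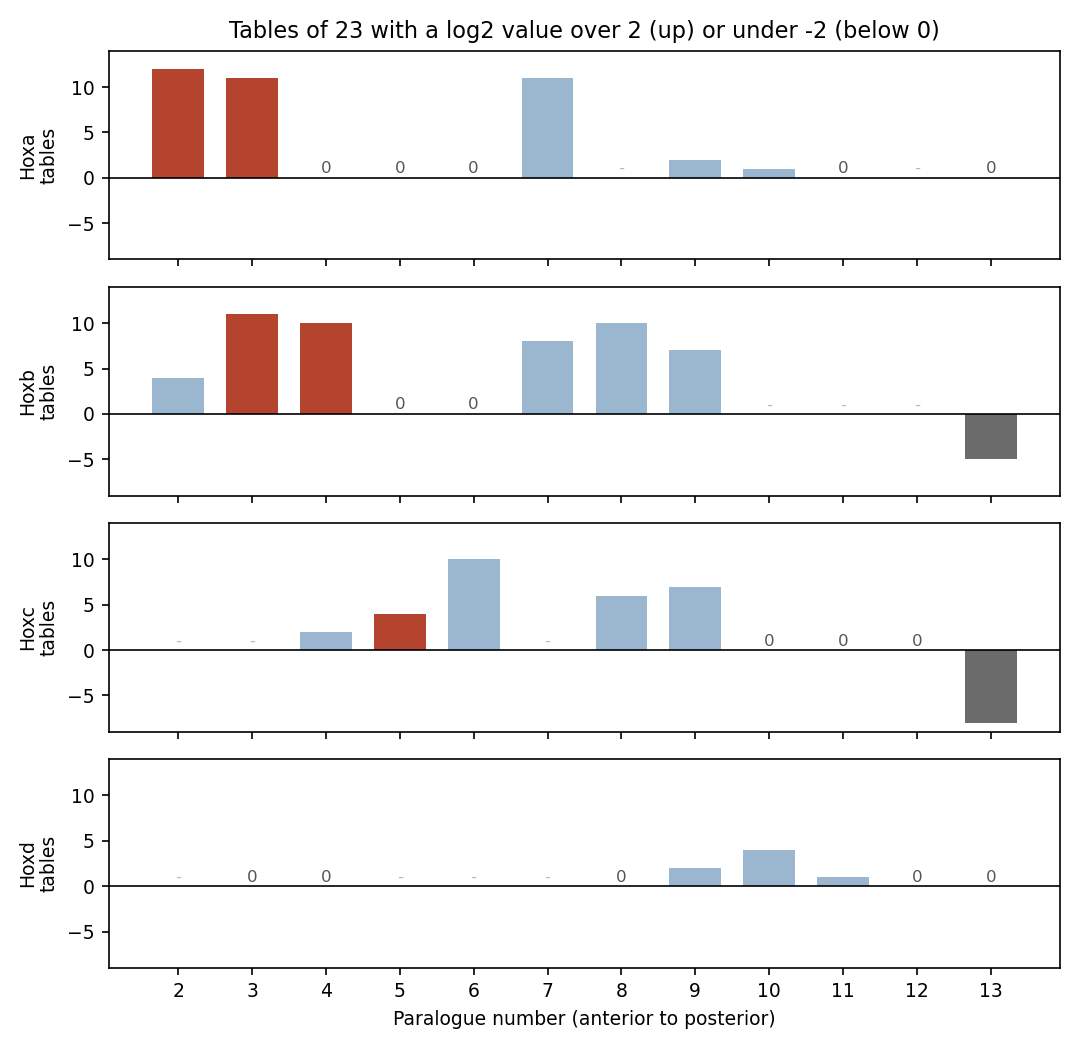
Number of the 23 tables in which each Hox gene of paralogue groups 2 to 13 had a log2 value over 2 (bars upward) or under -2 (grey bars downward), by paralogue number from anterior to posterior and by cluster, with Hoxa2, Hoxa3, Hoxb3, Hoxb4 and Hoxc5 in red, other genes in blue, 0 for a gene listed in no table and a dash where the cluster has no such gene. The red bars reach 12, 11, 11, 10 and 4 tables.

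The non-coding transcripts of the clusters gave values beside those of their neighbours. Of 10 such transcripts 5 were listed. Hoxaas2 was above 2 in 13 tables, which are every table of Hoxa3 and the WT day 2 tables with ATRA and BMS753, at 7.66 to 10.1. Hoxb5os was above 2 in 9 tables, Hoxaas3 and Hotairm1 in 3 each and Hoxb3os in 1. Hotairm1, of the anterior Hoxa cluster, was listed in the WT day 4 tables with ATRA, BMS753 and the combination, at 5.70, 6.33 and 3.66, and these 3 are the WT tables of day 4 that list Hoxa2.

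Hox proteins bind DNA with partners of the Meis, Pbx and Pknox families, and 2 of the 9 genes of these families were listed. Meis1 was above 2 in 12 tables, from 4.60 to 9.41, and Meis2 in 14, from 2.54 to 6.10, and both were among the listed genes in each of the 10 tables with at least 4 Hox genes of the set and in that of Rara(-/-) with BMS961. They were also listed in the WT combination at day 10, at 4.60 and 3.45, where no gene of the set was. No Pbx or Pknox gene was listed.

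Among 16 caudal and hindbrain regulators 10 were above 2 somewhere and none below -2. Gbx2, a gene of the anterior hindbrain, was above 2 in 10 tables, 9 of which list at least 4 of the Hox genes, and the other is the WT combination at day 10, at 7.37. Of 13 forebrain and midbrain regulators, 4 were above 2 somewhere and 2 below -2. Otx2, of the forebrain and midbrain, was below -2 in 6 tables, at -5.99 in WT with ATRA at day 4 and at -8.37 in Rarg(-/-) with ATRA, and each of these 6 tables lists at least 4 of the Hox genes.

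Of 19 genes of retinoid handling, 8 were above 2 somewhere and 3 below -2. Cyp26a1, which breaks down retinoic acid, was above 2 at day 2 in WT, at 4.94 with ATRA and 2.62 with BMS753, and in no later table. Aldh1a2, which makes retinoic acid, was above 2 in 9 tables, from 4.85 to 9.13, each of which lists at least 4 of the Hox genes.

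Markers of cell states changed in tables with and without the Hox genes, and their part in the Hox values was not tested. Of 8 embryonal carcinoma markers 5 were below -2 somewhere, and all 5 were in each of the 4 ATRA tables of day 10. Nanog, Tdgf1 and Fgf4 were also below -2 in WT at day 10 with EtOH, with BMS961 alone and with the combination. Those tables list no gene of the set. Pou5f1, the defining gene of the pluripotent state, fell by 9.88 on the log2 scale in WT with ATRA at day 10, but it was not listed in Rara(-/-) with the combination or in Rarb(-/-) with BMS753, where 4 of the Hox genes were. Neuron markers above 2 numbered 5 of 8 in WT with ATRA at day 10, 4 with BMS753, 1 in Rara(-/-) with ATRA and 2 with the combination, 1 in Rarb(-/-) with ATRA and 6 with BMS753, and 4 in Rarg(-/-) with each of ATRA and BMS753. Of 7 mesenchyme markers, 4 or 5 were above 2 in each of the 8 day 10 tables that list at least 4 of the Hox genes, and 0 to 3 in the other 8. Of 6 neural crest markers 3 were above 2 somewhere and 1, Foxd3, was below -2. Mesoderm and endoderm markers gave 2 of 7, oligodendrocyte precursor markers 1 of 5, which was Pdgfra, and astrocyte markers 1 of 5 above and 1 of 5 below, with Gfap listed in no table. Pdgfra was also above 2 where no gene of the set was listed. It was at 7.37 and 7.03 in Rarb(-/-) with BMS961 and the combination, and at 7.21 and 6.97 in Rarg(-/-) with BMS641 and the combination.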

How the data were processed

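P19 poly-A RNA libraries, 1 per condition, were sequenced by the authors, who mapped reads to mm9 with Bowtie2 2.1.0, assigned them to genes with featureCounts and ran DESeq2 on every library against that of WT EtOH at day 2. The deposited tables hold the authors' log2 fold changes and unadjusted p-values for genes with a p-value below 0.01, and 1 table also holds their SE. These columns are the results of the authors' own comparisons, and no other values were used, so they are reported as deposited. Counts, depth and adjusted values were not used here, and whether counting used the strand is not given in the sources used here.

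From these values the SE was computed as the size of the log2 value divided by the normal quantile of its two-sided p-value, with 95% normal intervals. In the 1 table with a deposited SE, the 144 implied values differed from it by a relative 4.27e-08 at most. SEs of differences were added in quadrature, which leaves the error of the shared reference in and gives intervals that are too wide, and no p-value was computed. A log2 value over 2 was counted as up, and percentages of all genes are of the 1753 genes listed in any table. Named genes were the 5 Hox genes, listed members of fixed lists and, per gene, the 3 genes of highest Jaccard index, and a few of these are not reported here. The genes and lists were chosen with earlier results of these data known. Gene positions and DR1, DR2 and DR5 repeats were read from NCBIM37 (mm9) and GENCODE vM1, on chromosomes 1 to 19, X and Y. The work used numpy 2.4.6, pandas 2.3.3, matplotlib 3.10.9 and scipy 1.17.1 under Python 3.11.15, and the scripts were tested on simulated data. With 1 library per condition there is no replicate check.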

Additional observations from a re-analysis of the deposited data

How the results depend on the processing

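The counts of listed values were recomputed under 7 alternatives, for the set as a whole and for each of the 5 genes. Of the 42 values 30 did not move and 36 stayed within 1.5 times. This tally says little of stability, because some alternatives could not move any value. All listed values were 4.66 or more, so thresholds of 1 and 3 could not move them. Leaving out genes above 2 in EtOH could not either, since no EtOH table lists a gene of the set. Thresholds of 1 and 3 on the log2 value, leaving out genes above 2 in EtOH of the same day, and matching by older symbols each left the 48 values and the 12, 11, 11, 10 and 4 tables as they were, and a threshold of 5 left 47. A p limit of 0.005 left 43 values and Hoxc5 in 2 tables. A p limit of 0.001 left 25 values, with Hoxa2 in 6 tables, Hoxa3 in 6, Hoxb3 in 3 and Hoxc5 in 2, and Hoxb4 in 8. No gene of the set then remained in WT with ATRA at day 2 or day 10, in WT with BMS641+BMS961 at day 4 or in Rara(-/-) with BMS961.

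Each condition is 1 library, so leaving out a replicate was not possible, and the spread between cultures is unknown for every difference. No paired analysis was possible because no group has more than 1 library. Depth is unknown, and a change below the limit of its table has no value here.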
